A study of Mus musculus with 2 samples.

Results

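The MHC class II presentation genes are 7 genes that were chosen by name: *H2-Aa*, *H2-Ab1*, *H2-Eb1*, *Cd74*, *H2-DMa*, *H2-DMb1*, and *Ciita*. All 7 were found among the 20299 genes of the count table. Kidney cells of C57BL/6 mice aged 8 weeks with nephrotoxic nephritis (NTN) were profiled by droplet-based single-cell RNA sequencing in 1 WT library and 1 *Vsir-/-* library. *Vsir* encodes VISTA, an inhibitory immune checkpoint that macrophages carry. In both groups the mice received 200 μg of sheep IgG in complete Freund's adjuvant and, 4 days later, sheep serum against the glomerulus, for which the labels give 2 μL per g of body weight and the study's methods another dose. The labels describe the WT library as sorted CD45+ cells and the *Vsir-/-* library as kidney cells of all kinds, whereas the study's methods describe a CD45+ sort for the experiment. Genotype, sort, and library therefore cannot be told apart, the number of mice per library is not given in the sources used here, and no test between the genotypes was possible. The authors sorted the cells into 16 named clusters, and *H2-Aa* is one of the genes that they used to recognize R1 macrophages, so the order of clusters is given as a description. The report rests on the authors' macrophage clusters (R1, M2-like R2, and Other R2), the cluster named plasmacytoid dendritic cells (pDCs), and B cells, with the other clusters beside them.

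MHC class II molecules display peptides from engulfed material to CD4+ T cells. *H2-Aa* and *H2-Ab1* encode the alpha and beta chains of I-A, the class II molecule of C57BL/6 mice, and *H2-Eb1* encodes the beta chain of I-E, whose alpha chain gene is inactive in this strain. *Cd74* encodes the invariant chain, which fills the groove of newly made class II molecules and takes them to the endosome. H2-DM, built from the products of *H2-DMa* and a DM beta chain gene, exchanges the invariant chain remnant for peptide, and H2-DO, encoded by *H2-Oa* and *H2-Ob*, restrains H2-DM. *Ciita* encodes the transactivator that switches the other genes on. B cells, dendritic cells, and macrophages are the cells best known for these genes, and interferon gamma induces them in many other cells.

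The class II genes share promoter elements, the X box and the Y box, on which the transactivator assembles, and promoter stretches are shown because the members went together across clusters. Promoter sequences of RefSeq on GRCm38.p6, the build of that table and not of the count files, were held for 4 of the 7 members, *H2-Aa*, *H2-Eb1*, *H2-DMa*, and *H2-DMb1*. The 250 bases before each start were searched on both strands for the Y box core ATTGG, an X box core written as ACNGATG, and the cyclic AMP response element TGACGTCA. The stretches below are 60 bases long, are read 5′ to 3′ on the strand of the gene, and have the matched letters in capitals. *H2-DMb2*, the near-identical neighbor of *H2-DMb1*, is added for comparison.
H2-Aa: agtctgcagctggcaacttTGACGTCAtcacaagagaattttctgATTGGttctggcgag
H2-Eb1: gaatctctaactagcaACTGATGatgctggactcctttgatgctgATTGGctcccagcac
H2-DMb1: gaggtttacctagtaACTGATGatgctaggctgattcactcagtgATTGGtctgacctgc
H2-DMb2: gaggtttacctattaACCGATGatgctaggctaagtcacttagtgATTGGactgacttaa
The stretches lie on chromosome 17, upstream of the start of each gene, at chr17:34287857-34287916 (minus strand) for *H2-Aa*, chr17:34305763-34305822 (plus strand) for *H2-Eb1*, chr17:34153085-34153144 (plus strand) for *H2-DMb1*, and chr17:34145114-34145173 (plus strand) for *H2-DMb2*. The Y box began 48 bases before the start in *H2-Aa*, 59 in *H2-Eb1*, 61 in *H2-DMb1*, and 90 in *H2-DMb2*. An X box core followed within 15 to 35 bases by a Y box was present in *H2-Eb1*, *H2-DMb1*, and *H2-DMb2*. Of the other class II genes searched that are not members, *H2-Eb2* had this pair, and *H2-Oa* and *H2-Ob* did not. The pair was present in 52 of all 32851 promoters of the table (0.158%). The single motifs were far more frequent, at 33.8% of promoters for the Y box core, 8.31% for the X box core, and 1.55% for the cyclic AMP response element. *H2-Aa* held the response element ahead of its Y box, and its X box core was not placed ahead of the Y box in this way. *H2-DMa* has 2 starts in the table, of which 1 held a Y box core and neither an X box core. These are matches of letters and do not show that a factor was bound.

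The counts are unique molecular identifiers (UMIs), and levels are UMIs per 1000000 UMIs of the same cells (CPM). Intervals are at the 95% level and cover counting error only, with each UMI taken as independent. They leave out the variation between cells of a cluster and between mice. Because 3′ UMI counts do not scale with transcript length, CPM of different genes are set side by side without a length correction. There were 32799550 UMIs in 5470 WT cells and 18601189 UMIs in 1844 *Vsir-/-* cells. *Vsir* itself had 4278 UMIs in the WT library and 8 in the *Vsir-/-* library. The *Vsir-/-* library held 16405 UMIs of *Xist* and 0 UMIs of the Y-linked *Ddx3y*, whereas the WT library held 0 and 1779 UMIs, although the study's methods describe male mice only, so that sex is confounded with genotype as well. The libraries carry gene symbols of different age: 97 of the 195 genes with at least 100 UMIs in the WT library and 0 in the *Vsir-/-* library are older symbols of genes with the opposite pattern. All 7 members had UMIs in both libraries, but whether their counting differed was not tested. The libraries shared 5 cell barcodes.

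B cell transcripts were also found outside the B cells, and this touches each comparison below. In WT mice, 45.7% of R1 cells, 37.9% of M2-like R2 cells, 31.9% of Other R2 cells, and 57.1% of pDCs had a UMI of *Cd79a*, *Cd79b*, or *Ms4a1*, whereas the shares in *Vsir-/-* mice were 27.8%, 8.93%, 3.82%, and 16.3%. *Cd79a*, which encodes a chain of the B cell receptor complex, was at 495 CPM in R1 cells, 161 CPM in M2-like R2 cells, and 624 CPM in Other R2 cells of WT mice, and at 0.625, 0, and 1.29 CPM in *Vsir-/-* mice. In the *Vsir-/-* R1 cells the transcript found was mostly *Cd79b* (55.6 CPM). Leaving out cells with a B cell transcript thus did not rest on the same transcripts in both libraries. Other lists also differed in these clusters: the summed T cell markers were between 310.5 and 574 CPM in WT and between 6.47 and 40.0 CPM in *Vsir-/-* mice, and the summed tubule markers were at most 7.56 CPM in WT and between 431 and 989.9 CPM in *Vsir-/-* mice. Because B cells hold class II transcripts themselves, the main comparisons are given for all cells and for the cells without a B cell transcript, and the others for all cells unless stated.

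The members had their highest level in R1 macrophages, the resident macrophages of the kidney. There the 7 genes together reached 70668 CPM (70044–71296) in WT mice and 61454 CPM (61070.2–61839) in *Vsir-/-* mice. In WT mice, B cells followed at 28749 CPM, pDCs at 23219, NKT cells at 12409, Other R2 cells at 7410.1, and M2-like R2 cells at 4802 CPM. In *Vsir-/-* mice the cluster named pDCs followed at 43032 CPM and the B cluster at 20056. M2-like R2 cells came next at 18567 and Other R2 cells at 6351 CPM. The pDC and B labels were only partly borne out in this library, as given below. No intervals of neighbors in these orders overlapped, but they carry counting error only. Among cells without a B cell transcript, M2-like R2 cells (3463 CPM) were above Other R2 cells (1724 CPM) in WT mice as well. No other cluster exceeded the 1525 CPM of neutrophils in WT mice or the 1293.7 CPM of proliferating cells in *Vsir-/-* mice. The 5 main clusters held 32.0% of the WT cells and 92.2% of the member UMIs, and 38.5% of the *Vsir-/-* cells and 94.9% of the member UMIs. B cells held 49.6% of the member UMIs of the WT library and 5.10% of those of the *Vsir-/-* library, whereas R1 cells held 24.3% and 47.7% and pDCs 3.05% and 24.7%. These shares depend on the level in a cluster and on its number of cells. B cells were 17.7% of the WT and 4.77% of the *Vsir-/-* cells, R1 cells 2.12% and 12.9%, and pDCs 0.384% and 4.66%. What part the sort had in these cell numbers was not tested.

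**Figure D1:**
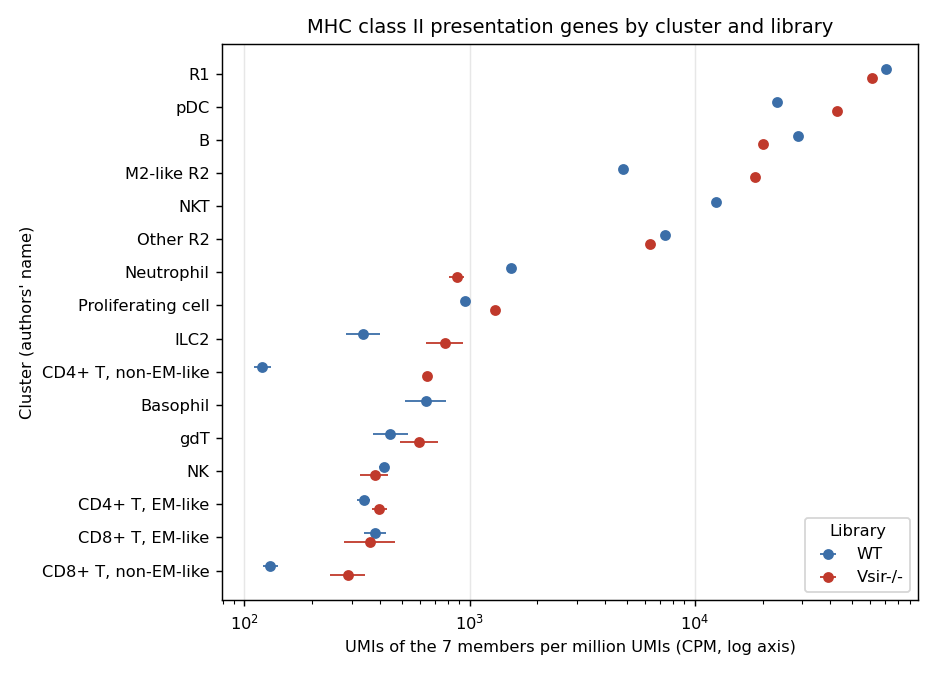
CPM of the 7 members together (log axis) in each cluster of each library, clusters with at least 15 cells, with 95% Poisson intervals. R1 cells were highest in both libraries, at 70668 and 61454 CPM, and the widest gap among the macrophage clusters was that of M2-like R2 cells, at 4802 CPM in WT and 18567 CPM in *Vsir-/-* mice.

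Across 24 sums of a cluster and a library with at least 50 cells, the members went together. As a description, the Pearson correlation of log2(CPM + 1) of a member with the mean of the other members was between 0.93 for *H2-DMa* and 0.996 for *H2-Aa*, and *Ciita* had 0.97. The sums share 2 libraries, and their B cell transcripts differ as given above. Among 11262 genes with at least 200 UMIs, the genes most like the members were *Fgd2* (0.95), *Hdac9* (0.94), *Ly86* (0.94), *Unc93b1* (0.94), *Cd180* (0.92), *Pkib* (0.92), *Erp29* (0.92), *B3gnt8* (0.91), *Fcgr2b* (0.91), and *Ctsh* (0.91). *Ly86* and *Cd180* encode the partners of a surface complex on B cells and myeloid cells, *Unc93b1* a chaperone of endosomal Toll-like receptors, and *Fcgr2b* the inhibitory Fc receptor.

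In R1 macrophages, the class II chains were at nearly the same level in both libraries. *H2-Aa* was at 11969.6 CPM in WT and 11587 CPM in *Vsir-/-* mice, a log2 ratio of *Vsir-/-* over WT of −0.05 (−0.08 to −0.01). *H2-Ab1* was at 11514 and 10596 CPM (log2 ratio −0.12, −0.16 to −0.08), and *H2-Eb1* at 10618 and 11089 CPM (0.06, 0.02 to 0.10). *Cd74* stood apart from the chains, with 35132 CPM (34692–35575) in WT and 26397 CPM (26146–26649.7) in *Vsir-/-* mice and a log2 ratio of −0.41 (−0.44 to −0.39). The DM genes had the opposite sign, at 614 and 794 CPM for *H2-DMa* (log2 ratio 0.37, 0.21 to 0.53) and 602 and 793 CPM for *H2-DMb1* (0.40, 0.24 to 0.56). *Ciita* was at 219 CPM (185–256) and 198 CPM (177–221), and the interval of its log2 ratio, −0.43 to 0.14, included 0. The share of *Cd74* among the member UMIs of R1 cells was 49.7% in WT and 43.0% in *Vsir-/-* mice. A lower *Vsir-/-* share was not particular to R1 cells. It was 56.6% and 49.1% in B cells, 49.8% and 42.0% in pDCs, and 57.0% and 46.0% in neutrophils. In Other R2 cells, 56.0% and 59.8%, it went the other way. No member passed a log2 ratio of 1 in either direction, against 13.6% of 8862 genes with at least 20 UMIs that were past it in the direction of *Vsir-/-* and 8.78% in the direction of WT. Such shares, here and below, include genes with UMIs in 1 library only. At least 100 UMIs in *Vsir-/-* and 0 in WT were held by 1011 genes, and 195 had the reverse. Their part in the shares was not counted.

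The R1 level in WT mice depended on the B cell transcripts. The 63 WT cells without one held 87685 member CPM (86612–88768) and the 53 cells with one 58422 CPM, whereas the 171 and 66 *Vsir-/-* cells held 62143 and 60332 CPM. When only *Cd79a* and *Ms4a1* were used for the choice, 82 WT and 236 *Vsir-/-* cells were left, at 83029 and 61297 CPM. Without the cells with a B cell transcript, *H2-Aa* was at 15212 CPM in WT and 11679.9 CPM in *Vsir-/-* mice (log2 ratio −0.38, −0.43 to −0.33), and *H2-Eb1* had the opposite sign to that in all cells (log2 ratio −0.25, −0.30 to −0.19). All 5 members other than the DM genes were then lower in *Vsir-/-* mice, and the log2 ratio of *Cd74* was −0.67. *H2-DMa* and *H2-DMb1*, at 0.14 and 0.15, had intervals that included 0. *H2-Aa*, *H2-Ab1*, and *Cd74* were thus lower in *Vsir-/-* mice over all cells and without the cells with a B cell transcript. These choices share cells, and the sign of *H2-Eb1* differed between them. In the R1 cells with a B cell transcript, *H2-Aa* went the other way, at 9636 CPM in WT and 11436 CPM in *Vsir-/-* mice.

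Every thinned R1 cell held class II chains. When each cell was thinned to 1000 UMIs, which leaves out cells with fewer, 109 of 109 WT and 212 of 212 *Vsir-/-* R1 cells had at least 1 UMI of *H2-Aa*, *H2-Ab1*, or *H2-Eb1*. The median R1 cell held 38.0 such UMIs per 1000 in WT and 36.0 in *Vsir-/-* mice, and the 10th and 90th percentiles were 16.0 and 65.2 in WT and 15.1 and 53.9 in *Vsir-/-* mice. Without the cells with a B cell transcript the medians were 48.5 and 35. In neutrophils, which are not classical antigen-presenting cells, 7.36% of thinned WT and 13.7% of thinned *Vsir-/-* cells had such a UMI. The highest neutrophils held 35 and 30 per 1000. These values are given for comparison, and what part free RNA or doublets had in them was not tested. Without the cells with a B cell transcript, these thinned shares were 3.90% and 14.0%. Of the unthinned neutrophils, which had medians of 3565 and 4097 UMIs, 18.3% and 51.9% had such a UMI. In the 4 T cell clusters, the thinned share was between 3.19% and 11.3% in WT mice and between 4.00% and 21.4% in *Vsir-/-* mice. Both ranges reached above the share of neutrophils. The T cell share is not read as expression, and its source was not tested.

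Among the 5 main clusters, the libraries differed most in M2-like R2 cells, infiltrating macrophages with *Ly6c2*, *Ccr2*, and *Chil3*. All 7 members were higher in *Vsir-/-* mice, and together they were at 4802 CPM (4737–4867) in 456 WT cells and 18567 CPM (18362–18775) in 168 *Vsir-/-* cells, a log2 ratio of 1.95 (1.93 to 1.98). The class II chains differed most. *H2-Aa* was at 698 and 3341 CPM (log2 ratio 2.26, 2.20 to 2.32), *H2-Ab1* at 566 and 3179 CPM (2.49, 2.42 to 2.56), and *H2-Eb1* at 419 and 2612 CPM (2.64, 2.56 to 2.72). *Cd74* was at 2673 and 8407 CPM, a log2 ratio of 1.65 (1.62 to 1.69), so that its share of the member UMIs was 55.7% in WT and 45.3% in *Vsir-/-* mice. The DM genes differed less, at 256 and 513 CPM for *H2-DMa* (1.0, 0.87 to 1.13) and 148 and 414 CPM for *H2-DMb1* (1.49, 1.33 to 1.64). *Ciita* was at 42.8 CPM (36.9–49.4) in WT and 101 CPM (86.2–117) in *Vsir-/-* mice (1.24, 0.93 to 1.54).

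All 7 members were past a log2 ratio of 1, *H2-DMa* only just, against 8.11% of 9751 genes past it in the direction of *Vsir-/-* and 7.61% in the direction of WT. The median log2 ratio over the members was 1.65, and that of all tested genes was 0.01. Without the cells with a B cell transcript, the members were at 3463 CPM (3392–3535) in 283 WT and 16899.5 CPM (16693–17108) in 153 *Vsir-/-* cells, a log2 ratio of 2.29 (2.25 to 2.32). In these cells 6 of 7 members were past a log2 ratio of 1, with *H2-DMa* at 0.96, against 8.48% of 8983 genes in the direction of *Vsir-/-* and 5.76% in the direction of WT. *H2-Eb1* was then at 229 and 2338 CPM, the widest log2 ratio of any member in any main cluster (3.35, 3.23 to 3.48). The M2-like R2 cells with a B cell transcript held 6779 member CPM in 173 WT cells and 33722.5 CPM in 15 *Vsir-/-* cells.

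Other transcripts also differed between the libraries in M2-like R2 cells, and not all in the same direction. *C1qa*, a marker of R1 macrophages, was at 31.9 CPM in the WT and 378 CPM in the *Vsir-/-* M2-like R2 cluster, and the 8 markers of conventional dendritic cells summed to 113 and 163 CPM. Of these, *Ccr7*, which WT B cells held at 479.8 CPM, was at 49.9 and 4.78 CPM. The 3 neutrophil markers summed to 4179.6 and 177 CPM. *Ly6c2* was at 2972 and 1673 CPM. Among cells without a B cell transcript, the 61 *Vsir-/-* cells with a C1q UMI held 22519.7 member CPM (22141.5–22903) and the 92 cells without one 13191 CPM (12955.5–13429), against 5414 and 3341 CPM in 14 and 269 WT cells. The 48 *Vsir-/-* cells with a UMI of *Flt3*, *Zbtb46*, *Cd209a*, *Clec9a*, *Xcr1*, or *Clec10a* held 26462 CPM and the 105 cells without one 11000 CPM, against 3362 and 3525 CPM in WT mice. Without any of these transcripts, 63 *Vsir-/-* cells held 8019.6 CPM (7781–8264) and 190 WT cells 3522 CPM (3429–3617), a log2 ratio of 1.19 (1.13 to 1.25). The difference was thus smaller but in the same direction in the cells without B cell, C1q, and dendritic cell transcripts, while markers are missed in single cells and the part of each cell type in the result was not tested.

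Single cells of the M2-like R2 cluster were uneven. After thinning, the median cell held 0 class II chain UMIs per 1000 in WT and 2.00 in *Vsir-/-* mice, and the highest cells held 28 and 68. In WT mice 14 of 409 cells (3.42%) had at least 10 such UMIs, as did 50 of 159 *Vsir-/-* cells (31.4%), while 242 WT and 62 *Vsir-/-* cells held none. *Ly6c2*, which encodes a surface antigen of newly arrived monocytes, and class II chains were then used together to sort the cells, with a limit of 3 class II UMIs per 1000. Cells with *Ly6c2* and below the class II limit made up 61.1% of the WT and 37.1% of the *Vsir-/-* cells, and cells without *Ly6c2* and at or above the limit made up 6.36% and 25.8%. Cells with both were 19.6% and 21.4%. These classes are ranges and not types: 58 WT and 14 *Vsir-/-* cells held 2 or 3 class II UMIs. The limit was reached by 25.9% of the WT (21.7–30.5%) and 47.2% of the *Vsir-/-* cells (39.2–55.2%), or by 15.9% and 45.1% without the cells with a B cell transcript. The difference was also present among cells with a UMI of *Ly6c2* before thinning, a wider choice than in the classes above. There, 259 WT cells without a B cell transcript held 3424 member CPM and 107 such *Vsir-/-* cells 15441 CPM.

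**Figure D2:**
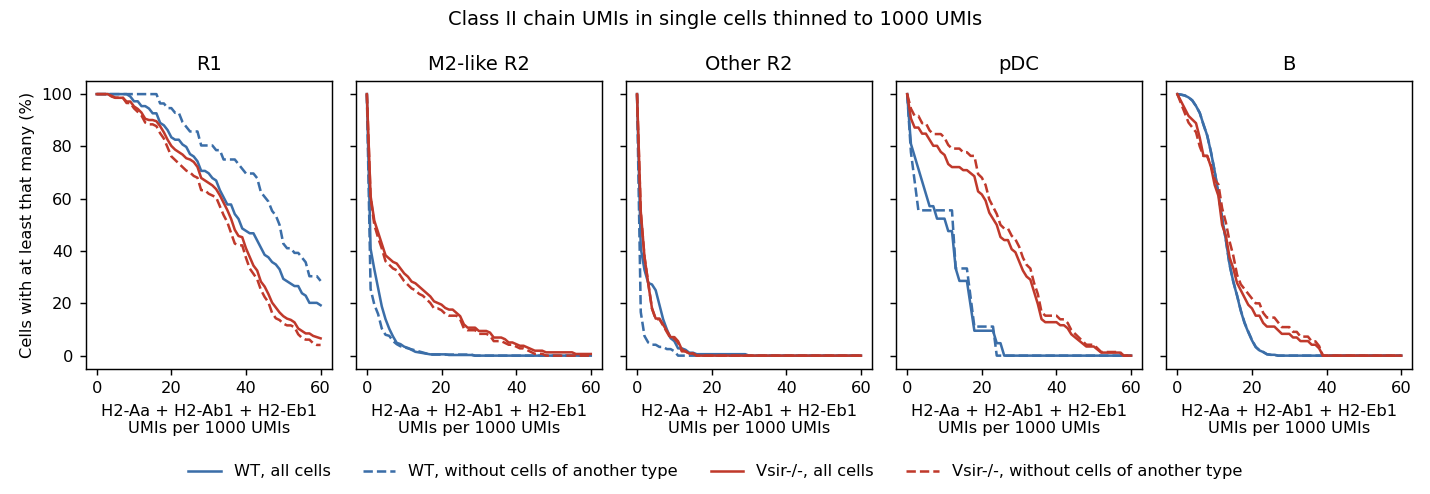
Share of cells (y axis, percent) with at least the number of class II chain UMIs given on the x axis, after thinning every cell to 1000 UMIs, for all cells (solid) and without cells holding B cell transcripts (dashed; in the B cluster, without cells holding *C1qa*, *C1qb*, or *Csf1r*). In the M2-like R2 panel, 31.4% of *Vsir-/-* cells and 3.42% of WT cells reach 10 UMIs, and in the Other R2 panel the dashed WT line lies below the solid one.

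In the Other R2 cluster, macrophages with transcripts of patrolling monocytes such as *Ace*, *Treml4*, and *Nr4a1*, the direction turned with the cells kept. Over all cells, the members were at 7410.1 CPM (7262–7561) in 188 WT cells and 6351 CPM (6175–6532) in 131 *Vsir-/-* cells, a log2 ratio of −0.22 (−0.27 to −0.17). Without the cells with a B cell transcript, they were at 1724 CPM (1621–1831) in 128 WT cells and 6329 CPM (6149–6512) in 126 *Vsir-/-* cells, a log2 ratio of 1.88 (1.78 to 1.97). The 60 WT cells with a B cell transcript held 12546 CPM and 8445 of the 9493 member UMIs of the WT cluster, and their median depth was 9520.5 UMIs against 4123 UMIs of the other WT cells. The same turn was seen for *H2-Aa*, at 1204 and 958 CPM over all cells (log2 ratio −0.33, −0.46 to −0.20) and at 201 and 936 CPM without these cells (2.22, 1.94 to 2.51). *Cd74* was at 4150.4 and 3801 CPM over all cells and at 1130.0 and 3786 CPM without them (1.74, 1.62 to 1.87). *H2-Ab1* and *H2-Eb1* turned likewise, to log2 ratios of 2.15 and 2.35.

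Over all cells, 0 of 7 members were past a log2 ratio of 1 in the direction of *Vsir-/-*, where 6.71% of 7555 genes were, and only *Ciita* was past it in the direction of WT (50.7 and 20.7 CPM, log2 ratio −1.29, −2.18 to −0.49), where 9.52% of the genes were. Without the cells with a B cell transcript, 6 members were past it in the direction of *Vsir-/-* and 0 in the direction of WT, against 7.66% and 6.23% of 6292 genes. *H2-DMa* was the exception, at 0.83 (0.24 to 1.44). *Ciita* was left with 5 WT and 15 *Vsir-/-* UMIs, and its interval, −0.24 to 3.11, included 0. After thinning, 5.0% of the WT cells without a B cell transcript (1.86–10.6%) and 27.9% of such *Vsir-/-* cells (20.1–36.7%) held at least 3 class II chain UMIs per 1000, whereas over all cells the shares were 27.8% and 27.6%. In WT neutrophils the members were likewise at 1525 CPM over all cells and at 482 CPM without the cells with a B cell transcript. *Vsir-/-* neutrophils were at 879 and 910 CPM, so that their log2 ratio turned from −0.79 to 0.92 (0.77 to 1.06). Without these cells, the log2 ratio in the clusters outside the 5 main ones lay between −0.07 (NK cells) and 2.59 (non-EM-like CD4+ T cells). It was −0.50 in R1 cells, and −0.48 in the B cluster without cells holding *C1qa*, *C1qb*, or *Csf1r*. A positive ratio with this choice of cells was thus not particular to R2 cells. What part doublets or free RNA of B cells had in the WT values was not tested.

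**Figure D3:**
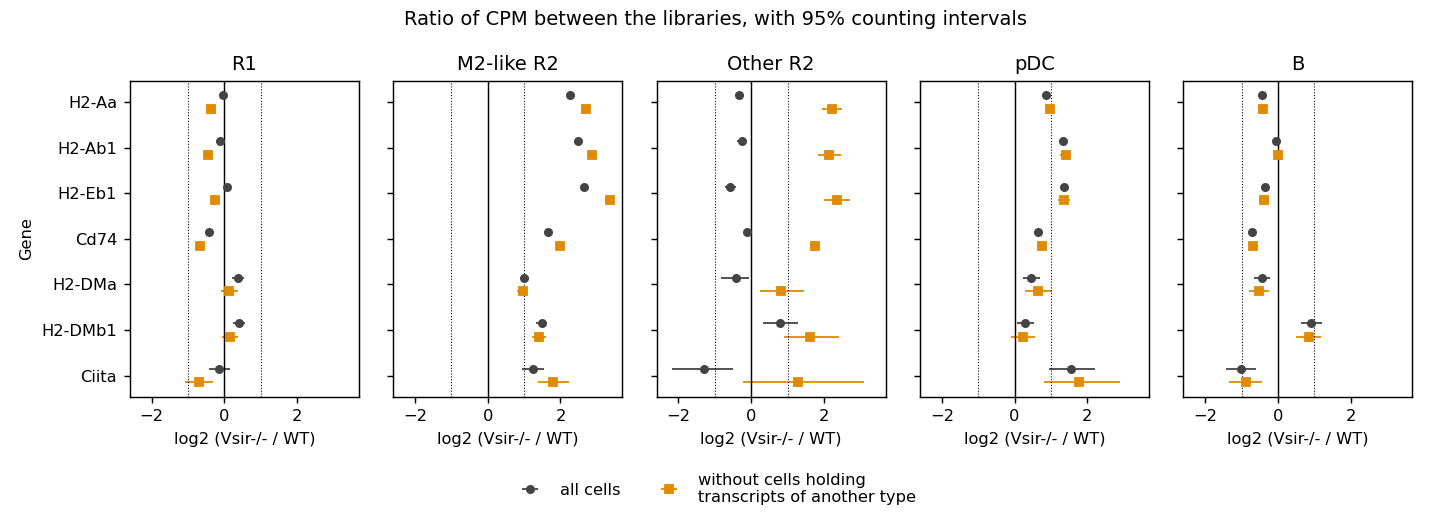
Log2 ratio of CPM of *Vsir-/-* over WT for each member in the 5 main clusters, over all cells (circles) and without cells holding transcripts of another type (squares; B cell transcripts, or *C1qa*, *C1qb*, and *Csf1r* in the B cluster), with exact 95% counting intervals and dotted lines at −1 and 1. All members of M2-like R2 cells lie at or above 0.96 with either choice of cells, whereas in Other R2 cells *H2-Aa* lies at −0.33 with one and at 2.22 with the other.

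The cluster named pDCs held class II genes second to R1 cells in *Vsir-/-* mice, and its label was only partly borne out. It held *Siglech* at 200 CPM in WT and 205 CPM in *Vsir-/-* mice, a marker of pDCs, but also *Cd209a* at 412 and 375 CPM and, in *Vsir-/-* mice, *Xcr1* at 190 CPM and *Clec9a* at 109 CPM (11.3 and 26.4 CPM in WT mice), which mark conventional dendritic cells. The 5 pDC markers *Siglech*, *Bst2*, *Ccr9*, *Tcf4*, and *Cox6a2* summed to 2100 CPM in WT and 1553 CPM in *Vsir-/-* mice. The 8 markers of conventional dendritic cells summed to less, 797 and 1099 CPM. The pDC list was not particular to this cluster, however, since it summed to 1006 and 1048 CPM in R1 cells of WT and *Vsir-/-* mice. The list of conventional dendritic cells was at 268 and 184 CPM there. The members were at 23219 CPM (22642–23806) in 21 WT cells and 43032 CPM (42659–43408) in 86 *Vsir-/-* cells, a log2 ratio of 0.89 (0.85 to 0.93), and the ratio was 0.98 without the cells with a B cell transcript, which left 9 WT cells. *H2-Ab1* (3279 and 8265 CPM, 1.33), *H2-Eb1* (2659.6 and 6846 CPM, 1.36), and *Ciita* (90.7 and 265 CPM, 1.55) were past a log2 ratio of 1 in the direction of *Vsir-/-*, that is 3 of 7 members against 11.9% of 6767 genes, and none was in the direction of WT, against 10.1%. When cells with a B cell transcript were left out, *H2-Ab1* (1.41), *H2-Eb1* (1.36), and *Ciita* (1.76) were again past it in the direction of *Vsir-/-*, against 14.8% of 5833 genes, and none in the direction of WT, against 12.1%. *H2-Aa* was at 4277 and 7831 CPM (0.87, 0.78 to 0.96), and the DM genes differed least, at 0.47 and 0.29.

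The *Vsir-/-* cells of this cluster were uneven. The 36 cells with *Xcr1* or *Clec9a* held 36223 member CPM (35740.3–36710.3), and the 29 cells with *Cd209a* and neither of these held 55566 CPM (54802–56338). The 9 cells with *Siglech* or *Ccr9* and none of the former held 9012 CPM (8307–9762), and the 12 cells with none of these transcripts held 54085 CPM (52949–55238). The lowest level was thus in the cells with pDC transcripts alone, whereas cells with none of the transcripts were near those with *Cd209a*. In WT mice, 8 cells with *Cd209a* and neither *Xcr1* nor *Clec9a* held 24179 CPM (23341–25040) and 7 cells with none of the transcripts 33608 CPM (32244–35013), in both cases below the corresponding *Vsir-/-* cells. With 21 WT cells in all, the mix of dendritic cell types and the genotype cannot be told apart.

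B cells held the members at 28749 CPM (28571–28928) in 969 WT cells and at 20056 CPM (19675–20443) in 88 *Vsir-/-* cells, a log2 ratio of −0.52 (−0.55 to −0.49). *Cd74* was at 16259 and 9847 CPM (−0.72, −0.76 to −0.68), *H2-Aa* at 4701 and 3454 CPM (−0.44, −0.52 to −0.37), and *H2-Eb1* at 3622 and 2817 CPM (−0.36, −0.44 to −0.28). With every cell thinned to 1000 UMIs, however, the ratios of *H2-Aa*, *H2-Eb1*, and *H2-DMa* turned positive. *H2-Ab1*, at 3344 and 3235 CPM, had an interval that included 0 (−0.12 to 0.03). *Ciita* was at 214 and 107 CPM (−1.0, −1.42 to −0.61). *H2-DMb1* alone had the opposite sign, at 126 and 238 CPM (0.92, 0.62 to 1.21), and its ratio was −0.11 when only cells with a B cell transcript were kept. With 0.5 UMIs added to both counts, as in every such count here, 0 of 7 members were past a log2 ratio of 1 in either direction, against 16.3% of 9094 genes in the direction of *Vsir-/-* and 15.9% in the direction of WT. The label was weak in *Vsir-/-* mice, where 45 of the 88 cells had a B cell transcript against all 969 WT cells, and the cluster also held *C1qa* at 85.8 CPM and tubule markers at 2150 CPM. The 45 cells held 18302 member CPM (17833–18779) and the 43 other cells, with a median of 1122 UMIs per cell, 22733 CPM (22089–23390.5). Kept to cells with a B cell transcript, the log2 ratio was −0.65. For the whole cluster, with or without such a transcript, it was −0.13 with every cell thinned to 1000 UMIs.

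The DM beta chain showed a split between B cells and the macrophage and pDC clusters, though not over all WT Other R2 cells. *H2-DMb1* and *H2-DMb2* lie side by side and are near-identical, so the assignment of UMIs between them is uncertain. Of the UMIs of both genes, *H2-DMb1* had 14.9% (13.6–16.2%) in WT B cells, with 438 and 2503 UMIs, and 98.8% (98.0–99.3%) in *Vsir-/-* R1 cells, with 1270 and 16 UMIs. In M2-like R2 and Other R2 cells of *Vsir-/-* mice the share was 98.7% in each. In WT mice, the share was 86.2% in R1 cells, 78.1% in M2-like R2 cells, and 29.6% in Other R2 cells, and without the cells with a B cell transcript it was 99.5%, 97.2%, and 95.2%. *H2-DMb2* was not used to choose those cells, but WT B cells hold it, so that the shift is not independent of the choice. In pDCs it was 87.0% in WT and 88.3% in *Vsir-/-* mice, and 95.6% and 89.4% without these cells. In the *Vsir-/-* B cluster the share was 53.4% (46.8–59.9%), made of 27.8% (20.4–36.3%) in cells with and 87.1% (79.0–93.0%) in cells without a B cell transcript.

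**Figure D4:**
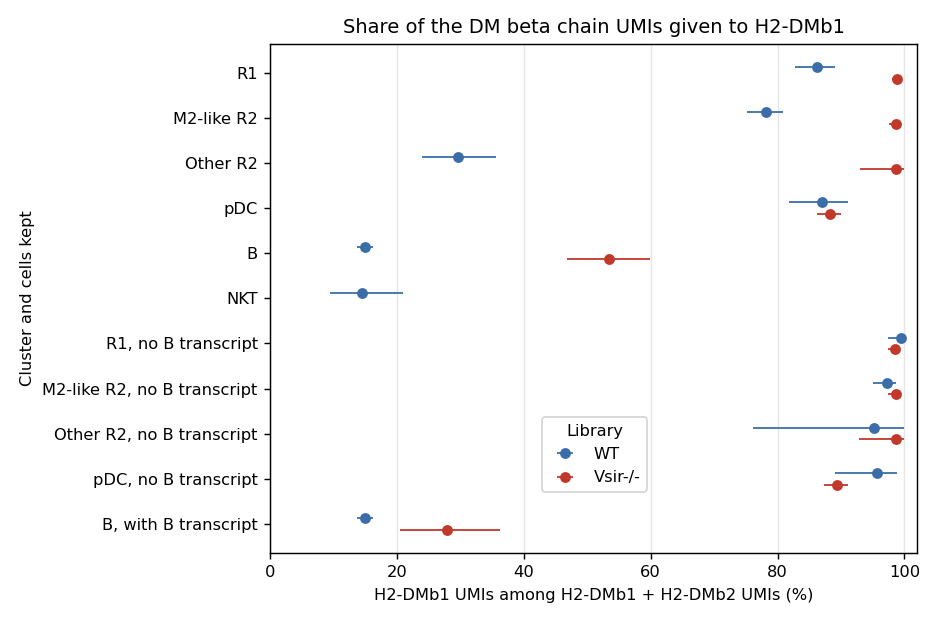
Share of the UMIs of *H2-DMb1* and *H2-DMb2* that belong to *H2-DMb1* (x axis, percent) by cluster and library with exact 95% binomial intervals, over all cells (upper rows) and by the presence of B cell transcripts (lower rows). WT B cells lie at 14.9% and *Vsir-/-* R1 cells at 98.8%, and WT Other R2 cells go from 29.6% to 95.2% without the cells with a B cell transcript.

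The genes of H2-DO were highest in WT B cells. *H2-Oa* was at 337 CPM and *H2-Ob* at 618 CPM in WT B cells and at 122 and 160 CPM in the *Vsir-/-* B cluster. In Other R2 cells, *H2-Oa* was at 57.0 and 3.88 CPM, and *H2-Ob* at 135 CPM in WT and 6.47 CPM in *Vsir-/-* mice. Without the cells with a B cell transcript, *H2-Ob* was at 1.64 and 5.39 CPM, from only 1 and 4 UMIs. In M2-like R2 cells *H2-Ob* was at 40.1 and 4.18 CPM, and at 4.20 and 3.31 CPM (11 and 5 UMIs) without these cells. In *Vsir-/-* pDCs, *H2-Oa* was at 116 CPM and *H2-Ob* at 87.9 CPM. *H2-Oa* was above *H2-DMb2* in other clusters, at 79.3 CPM against 4.96 CPM in WT ILC2s and at 22.5 against 1.19 CPM in WT non-EM-like CD8+ T cells. In WT R1 cells without a B cell transcript it was at 37.8 against 3.44 CPM, from 11 against 1 UMI.

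The WT cluster named NKT cells also held class II transcripts, at 12409 CPM (12089–12734) in 94 cells, and the *Vsir-/-* library had no cells in it. It held *Cd79a* at 1292 CPM and 78.7% of its cells had a B cell transcript, its T cell markers summed to 1600 CPM, and *H2-DMb1* had 14.5% (9.40–20.9%) of the DM beta chain UMIs. After thinning, 98.5% of 67 cells had a class II chain UMI, and the median was 5 per 1000 against 12.0 in WT B cells. The 20 cells without a B cell transcript, with a median of 848 UMIs per cell, held 13333 CPM (11796–15016).

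In T cells the members were scarce, and in WT mice *H2-DMa* made up more of them than in R1 or B cells. In WT mice, *H2-DMa* made up 33.3% (29.7–37.1%) of the 660 member UMIs of non-EM-like CD8+ T cells and 19.6% (16.3–23.2%) of the 536 of non-EM-like CD4+ T cells, with 10.1% and 7.37% in EM-like CD4+ and CD8+ T cells, against 1.68% in B cells, 0.869% in R1 cells, and 5.33% in M2-like R2 cells. WT NK cells had 8.71%, so that a high share was not limited to T cells. The *Vsir-/-* shares were 7.66% in EM-like CD4+ T cells, 3.33% for CD4+ T cells outside the EM-like cluster, 2.76% in M2-like R2 cells, 1.79% in B cells, and 1.29% in R1 cells. The *Vsir-/-* CD8+ clusters held few member UMIs, of which *H2-DMa* had 10 of 127 (non-EM-like) and 6 of 60 (EM-like). *H2-DMa* was at 22.6 CPM in *Vsir-/-* non-EM-like CD8+ T cells, a log2 ratio of −0.94 (−2.02 to −0.04). The level of *H2-DMa* in the non-EM-like WT cells was 43.5 CPM (CD8+) and 23.6 CPM (CD4+), beside 26.2 CPM in WT neutrophils. With cells holding a B cell transcript left out, these levels were 44.6, 23.1, and 6.72 CPM. Over all of the non-EM-like cells, *H2-DMb1* was at 0.79 and 1.35 CPM. In the *Vsir-/-* library the non-EM-like CD4+ cluster held the members at 646 CPM against 120 CPM in WT mice (log2 ratio 2.42, 2.29 to 2.56). Of its 349 cells, 233 had no UMI of 6 T cell genes and held 709 CPM, and the 116 cells with one held 470 CPM. Of the cells of this cluster, 30.4% had a UMI of the leukocyte gene *Ptprc* in *Vsir-/-* mice and 95.1% in WT mice.

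Of the class II pathway genes listed beside the members, 27 were measured. In M2-like R2 cells, 1 of 27 with at least 20 UMIs was past a log2 ratio of 1 in the direction of *Vsir-/-* and 3 in the direction of WT. The shares of all 9751 genes were 8.11% and 7.61%, and the median ratio of the 27 was 0.06. The 3 were *H2-DMb2*, *H2-Oa*, and *H2-Ob*. Without the cells with a B cell transcript, 1 of 22 was past it in the direction of *Vsir-/-* and 0 in the direction of WT. The shares of all 8983 genes were then 8.48% and 5.76%. The 1 was *Ifi30*, the lysosomal thiol reductase, which was listed at 0 UMIs in the WT library and at 5648 UMIs in the *Vsir-/-* library, as is the case for 1011 genes with at least 100 UMIs in the latter, so no fold is given for it. *Rfx5*, *Rfxap*, and *Rfxank*, which encode the factor that binds the X box, were between 3.87 and 35.8 CPM in M2-like R2 cells of either library, with log2 ratios between −0.32 and 0.63. *Nfya*, *Nfyb*, and *Nfyc*, whose products bind the Y box, had ratios between −0.16 and 0.37.

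The listed processing enzymes and upstream signaling genes other than *Ifi30* were within a log2 ratio of 1 in either direction in M2-like R2 cells. *Ctss*, the cathepsin that trims the invariant chain in these cells, was at 2092 and 2345 CPM (log2 ratio 0.16), *Ctsb* at 967 and 972 CPM (0.01), and *Lgmn* at 136 and 187 CPM (0.46). *Ctsl*, another cathepsin, was at 82.9 and 136 CPM (0.72, 0.47 to 0.96). *Ifngr1*, a chain of the interferon gamma receptor, was at 383 and 316 CPM (−0.28), and *Irf1* at 99.0 and 121 CPM (0.28). The costimulatory genes *Cd86*, at 64.9 and 93.7 CPM (0.53), and *Cd40*, at 31.4 and 40.0 CPM (0.35), were below a log2 ratio of 1. *March1*, which encodes a ubiquitin ligase that removes class II molecules from the surface, was at 108 and 66.3 CPM (−0.70) in M2-like R2 cells and at 186 and 78.1 CPM (−1.25) in R1 cells. In R1 cells, 2 of 25 listed genes were past a log2 ratio of 1 in the direction of *Vsir-/-* (*Ctsl* and *Ifi30*) and 4 in the direction of WT. With cells holding a B cell transcript left out, the counts in R1 cells were 4 and 2 of 20 listed genes and 0 and 0 of 7 members, against 15.3% and 9.08% of 6827 genes. In Other R2 cells they were 1 and 3 of 23, and 1 and 0 of 18 without those cells. In pDCs they were 2 and 0 of 23, and 5 and 1 of 23 without those cells. In the B cluster they were 5 and 7 of 26, and the shares of all genes are those given above for each cluster. *Ifi30*, with 0 UMIs in the WT library, is among the genes in the direction of *Vsir-/-* in each of these counts of listed genes.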

How the data were processed

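Single cells of nephritic kidneys were profiled with the 10x 3′ v3.1 chemistry in 2 libraries. The authors deposited 1 matrix of raw UMI counts per gene and cell, with the library, cluster name, and percent of mitochondrial UMIs of each cell. Cell Ranger 3.1.0, R 4.0.3, Seurat 3.2.3, and the build mm9 are named in the submitters' processing notes. Deposited cells had at least 501 UMIs and a mitochondrial percent of at most 10. Whether doublets were removed is not given, nor is the annotation, in the sources used here, and no doublet caller was run.

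Raw counts were summed per cluster and library with Python 3.11.15, numpy 2.4.6, scipy 1.17.1, and pandas 2.3.3, and figures were drawn with matplotlib 3.10.9. Levels (CPM) have exact Poisson intervals, shares exact Clopper-Pearson intervals, and log2 ratios exact conditional intervals, all at 95% and for counting error only. With 1 library per genotype there was no test. A gene was called past the limit at a log2 ratio beyond 1 in either direction after adding 0.5 UMIs, provided that the cluster held 20 or more of its UMIs. Cells were thinned to 1000 UMIs with a fixed seed, which left out 167 WT and 78 *Vsir-/-* cells. Cells with at least 1 UMI of *Cd79a*, *Cd79b*, or *Ms4a1* are those with a B cell transcript. The text names the 7 members, the listed pathway and marker genes, and the 10 genes most like the members. The members and lists were chosen with earlier results of these data known. The steps were tested on simulated data. Alternatives were the mitochondrial limit, thinning, the denominator, the scaling, the filter on low counts, the class II limit, and the cells kept. Some listed genes are not reported here.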

Additional observations from a re-analysis of the deposited data

Results flagged for a closer look

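The log2 ratio of the summed members between *Vsir-/-* and WT mice did not have 1 sign across the macrophage, dendritic cell, and B cell clusters. It was 1.95 in M2-like R2 cells and 0.89 in the cluster named pDCs. It was −0.20 in R1 cells, −0.22 in Other R2 cells, and −0.52 in the B cluster. The labels of the pDC and B clusters were only partly borne out in *Vsir-/-* mice. The difference between clusters was not tested, since each genotype is 1 library. The share of cells with a B cell transcript differed between the libraries in each of these clusters, and without those cells the ratio of Other R2 cells was 1.88. What part the sort, the sex, or the B cell transcripts had in the pattern was not tested.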

How the results depend on the processing

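No paired analysis was possible because each genotype is 1 library, and no library could be left out. The log2 ratio of the summed members kept its sign in M2-like R2, B cells, and pDCs under the alternatives listed here, and in Other R2 cells it did not. In R1 cells it kept its sign under these alternatives, but R1 cells with a B cell transcript were at 58422 CPM in WT and 60332 CPM in *Vsir-/-* mice. With every cell thinned to 1000 UMIs it was −0.37 in R1, 1.90 in M2-like R2, 0.000425 in Other R2, 0.98 in pDCs, and −0.13 in B cells. Without cells of another type it was −0.50, 2.29, 1.88, 0.98, and −0.48. Less the median log2 ratio of all genes it was −0.16 in Other R2, 0.96 in pDCs, and −0.48 in B cells. Without the cell with the most member UMIs it was −0.28 in Other R2 and −0.58 in B cells, and with a mitochondrial share of at most 5% it was −0.12 in Other R2. Chosen after seeing the data, leaving out cells with B or T cell transcripts gave −0.65 in R1, 2.06 in M2-like R2, 1.88 in Other R2, and 1.18 in pDCs, leaving out cells with B cell, C1q, or dendritic cell transcripts gave 1.19 in M2-like R2, and keeping only cells with a B cell transcript gave −0.65 in B cells.

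Of 287 alternatives for the 35 ratios of single members, 200 lay within the interval of the reported value, 64 moved outside it, and 23 turned the sign. After thinning, the turned ratios in Other R2 were 0.18 for *H2-Aa*, 0.10 for *Cd74*, and −1.08 for *H2-DMb1*, those in B cells 0.044 for *H2-Aa*, 0.17 for *H2-Eb1*, and 0.25 for *H2-DMa*, and that of *H2-Eb1* in R1 −0.091. Without cells of another type they were, in Other R2, 2.22 for *H2-Aa*, 2.15 for *H2-Ab1*, 2.35 for *H2-Eb1*, 1.74 for *Cd74*, 0.83 for *H2-DMa*, and 1.30 for *Ciita*, and −0.25 for *H2-Eb1* in R1. Without cells with B or T cell transcripts they were, in the same order, 2.02, 2.61, 2.26, 1.72, 1.03, and 1.04 in Other R2, −0.38 for *H2-Eb1* in R1, and −0.022 for *H2-DMa* in R1. In cells with a B cell transcript *H2-DMb1* was at −0.11 in the B cluster. In Other R2 cells without a B cell transcript, a choice made after seeing the data, 6 members were past a log2 ratio of 1 in the direction of *Vsir-/-* and 0 in the direction of WT.

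With a class II limit of 1 UMI in place of 3, 40.8% of WT and 61% of *Vsir-/-* M2-like R2 cells and 41.1% and 55.1% of Other R2 cells reached it. With a limit of 5, these shares were 13.9% and 38.4% in M2-like R2 cells and 25% and 14.2% in Other R2 cells, so that the order of the libraries in Other R2 cells turned with the limit. Without cells with a B cell transcript, 15.9% of WT M2-like R2 and 5.0% of WT Other R2 cells reached 3. Not thinned, the share of cells with a class II UMI was 61.4% in WT and 83.9% in *Vsir-/-* M2-like R2 cells, 80.2% in *Vsir-/-* Other R2 cells, and 100% in the *Vsir-/-* B cluster. The cause of these changes was not tested. Depth limits *Ciita* most, with 16 UMIs in *Vsir-/-* Other R2 cells and 24 in WT pDCs.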
